A study of Homo sapiens with 3 samples.

Results

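The phagocyte NADPH oxidase genes examined here are 6 of the 57773 Ensembl gene IDs in the count table: CYBB, CYBA, NCF1, NCF4, RAC2 and HVCN1. They were chosen by name, as the membrane and cytosolic subunits of the enzyme, its small GTPase and its proton channel, and each matched 1 row. The RNA came from NB4 cells, an established cell line of human acute promyelocytic leukaemia with the PML-RARA fusion, arrested as promyelocytes. There were 3 polyA-selected libraries. A non-target short hairpin RNA (shRNA) was expressed in the control library, and shRNAs against human ARID1B, a subunit of the BAF chromatin remodelling complex, in the others, labelled sh2 and sh3 and called hairpin 2 and hairpin 3 here. The medium was RPMI with fetal bovine serum for all cells, and no inducer of differentiation is named in the labels. Total counts lay between 59997475 and 62954803. Separate cultures are not stated in the labels, so p-values below reflect only how these samples vary. That variation comes from libraries of different hairpins, and any part of it beyond the hairpins may be technical.

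The phagocyte oxidase passes electrons from cytosolic NADPH across the membrane to oxygen and so makes superoxide, the start of the respiratory burst of neutrophils, eosinophils and macrophages. In resting cells the membrane pair, CYBB (gp91phox, which carries the heme and flavin) and CYBA (p22phox, which stabilises it and docks the organiser), is apart from a cytosolic complex that includes NCF1 (p47phox, the organiser) and NCF4 (p40phox, which binds a membrane phosphoinositide). On stimulation NCF1 is phosphorylated, the complex moves to the membrane, and GTP-bound RAC2 joins it, while HVCN1, a voltage-gated proton channel, carries protons that balance the electron charge. The genes are switched on during granulocyte and monocyte maturation, and defects in CYBB, CYBA or NCF1 cause chronic granulomatous disease.

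With ARID1B silenced, 5 of the 6 genes rose (NCF1, HVCN1, CYBB, NCF4 and RAC2), none fell, and CYBA did not pass the test. The count was 3 with DESeq2, 1 with robust empirical Bayes in edgeR and 0 without a low-count filter. Rises ranged from 1.53-fold for RAC2 to 11.5-fold for NCF1. The test was edgeR's quasi-likelihood test over all 20382 genes that passed a filter on low counts, and calls were made at an adjusted p below 0.05 (Benjamini-Hochberg). It called 5.49% of all genes tested higher and 3.21% lower. The median log2 fold change was 0.972 over the 6 genes and -0.0116 over all genes tested. The 6 were chosen with earlier results of these data known, so this contrast with all genes is not an independent test. Each of the 6 passed the low-count filter, which a gene could pass on the counts of 1 library. Genes near 0 in the control were thus tested where a hairpin library was high enough, and such genes are in the lists below. The fit had 1 residual degree of freedom, from the difference between the hairpins, and a prior with 14.8 degrees of freedom drawn from all genes. Each SE thus rests mostly on spread shared across genes, not on that gene's own hairpin difference. The lone control library is assumed to vary like the hairpin libraries. ARID1B counts were 5268 with the control hairpin, 2209 with hairpin 2 and 2234 with hairpin 3, so the hairpins lowered their target to nearly the same level.

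**Figure D1:**
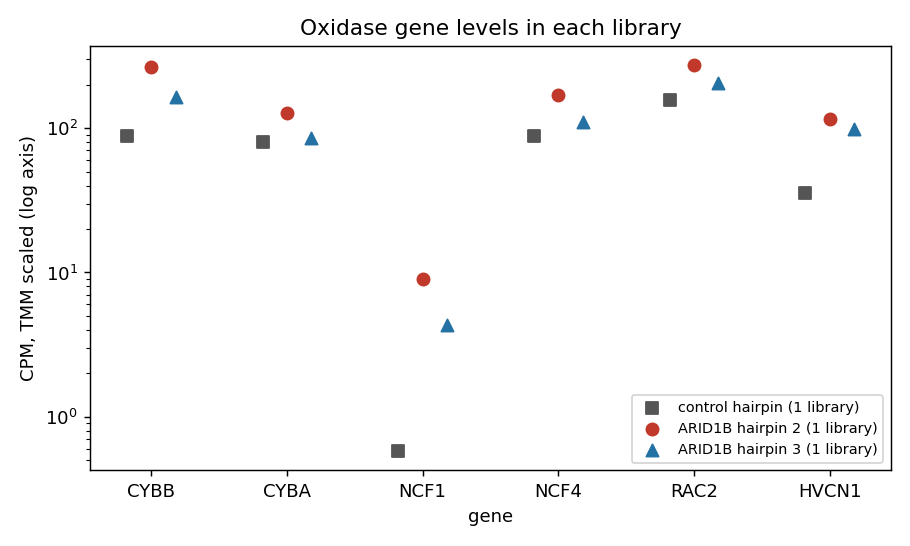
Level of each oxidase gene in each library, in CPM (counts scaled to library size) scaled by TMM factors, on a log axis; each point is 1 library. In every gene the control square is lowest and hairpin 2 highest, with NCF1 going from 0.58 CPM to 9.07 and 4.32.

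The sequences of the start regions of CYBB, NCF1 and CYBA are shown, the 3 of the 6 genes that were matched in the sequence table used here, to let known motif letters be read beside their changes. They are the 250 bases before the start site (RefSeq, GRCh38.p14, 5′ to 3′ on the gene's strand). Capitals mark letters of 3 searched motifs: GAGGAA (the core bound by PU.1, the myeloid ETS factor), AGATAA or TGATAA (bound by GATA factors) and the ETS-IRF composite (GGAA and GAAA with 2 free bases between them), each on either strand.
CYBB chrX:37779809-37780058 (+ strand): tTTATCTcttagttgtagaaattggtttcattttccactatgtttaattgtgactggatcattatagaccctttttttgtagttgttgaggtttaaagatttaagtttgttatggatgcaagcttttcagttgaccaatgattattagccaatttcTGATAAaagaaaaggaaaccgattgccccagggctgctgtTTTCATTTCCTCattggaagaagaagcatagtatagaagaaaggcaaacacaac
NCF1 chr7:74773761-74774010 (+ strand): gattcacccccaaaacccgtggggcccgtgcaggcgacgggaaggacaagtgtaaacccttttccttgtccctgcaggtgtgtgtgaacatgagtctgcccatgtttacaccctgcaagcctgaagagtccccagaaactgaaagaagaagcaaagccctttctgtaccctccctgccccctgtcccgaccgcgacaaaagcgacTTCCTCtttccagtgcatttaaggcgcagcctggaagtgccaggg
CYBA chr16:88651054-88651303 (- strand): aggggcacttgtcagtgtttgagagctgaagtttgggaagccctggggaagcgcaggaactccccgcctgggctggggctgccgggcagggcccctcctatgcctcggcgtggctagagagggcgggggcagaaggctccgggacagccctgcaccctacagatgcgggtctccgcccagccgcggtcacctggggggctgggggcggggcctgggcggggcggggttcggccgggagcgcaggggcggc
In CYBB, whose stretch was 34% G and C, GAGGAA lay on the opposite strand from base -48, counted from the start site, and overlapped a match to the composite from base -54. The CYBB stretch also held a TGATAA on its own strand from base -94 and an AGATAA on the opposite strand from base -249. In NCF1 the one match was GAGGAA on the opposite strand, from base -45. CYBA, at 73.6% G and C, held none of these letters in this window. Across 35116 RefSeq windows of 300 bases, 27.9% held GAGGAA, 16.3% AGATAA or TGATAA and 2.82% the composite. A match describes letters and shows no binding, which was not measured in these libraries.

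CYBB, the catalytic membrane subunit, was read 5489 times in the control, 16034 times with hairpin 2 and 10265 times with hairpin 3. In CPM this was 88.4 in the control and 216 ± 72.1 (SD, n = 2) with ARID1B silenced, and both hairpin libraries lay above the control. The ratio of CYBB to its control level was 3.02 with hairpin 2 (exact 95% counting interval 2.93 to 3.11) and 1.86 with hairpin 3 (1.80 to 1.93). The fitted log2 fold change was 1.29 ± 0.212 (SE; edgeR quasi-likelihood test, adjusted p = 8.81e-04), a call lost with robust empirical Bayes (0.218), with DESeq2 (0.258) and without the low-count filter (0.47). The 2 hairpin libraries differed from each other by 1.62 times (1.58 to 1.66), which is more than counting error. Intervals here cover counting error only, since reads carry no molecular identifiers.

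CYBA, the partner without which CYBB protein is unstable, had 4943 counts in the control, 7709 under hairpin 2 and 5316 under hairpin 3. Hairpin 2 stood at 1.61 times the control (1.55 to 1.67), whereas hairpin 3 was at 1.07 times (1.03 to 1.11). In CPM the silenced libraries averaged 107 ± 30.4 (SD, n = 2) against 79.6 in the control, so the gap between the hairpins exceeded that between hairpin 3 and the control. With a log2 fold change of 0.42 ± 0.183 the gene did not pass (edgeR adjusted p = 0.194), which does not show that it was unaffected.

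**Figure D2:**
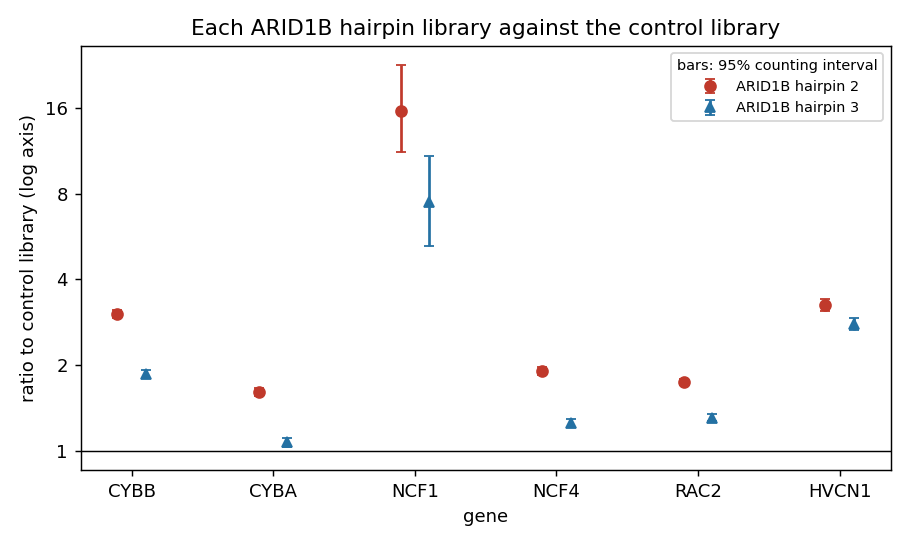
Ratio of each ARID1B hairpin library to the control library for the 6 genes, on a log axis, with exact 95% counting intervals as bars; the line at 1 is the control. Hairpin 2 lies above hairpin 3 throughout, and CYBA under hairpin 3 (1.07) lies nearest to the control.

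NCF1, the organiser, had the largest change and the lowest level. Its counts were 36 in the control, 545 with hairpin 2 and 269 with hairpin 3. Against the control it stood at 15.6 times under hairpin 2 (exact 95% counting interval 11.2 to 22.6) and 7.44 times under hairpin 3 (5.24 to 10.9). The fitted log2 fold change was 3.52 ± 0.444 (edgeR adjusted p = 8.08e-05), a call lost with robust empirical Bayes (0.139) and without the low-count filter (0.47). In CPM the level went from 0.58 to 6.69 ± 3.36 (SD, n = 2), with the control far below both hairpin libraries.

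NCF1 has near-identical pseudogene copies, NCF1B and NCF1C, on the same chromosome, so the split of reads among them is uncertain. A short stretch of the GENCODE 29 transcripts is shown because it holds the known mark of the pseudogenes, the loss of a GT. Capitals mark the repeat in which they differ.
NCF1: cagccagcactaTGTGTacatgttcctgg
NCF1C: cagccagcactaTGTacatgttcctgg
Over 1394 aligned bases the NCF1 and NCF1C transcripts were 99.4% identical. Of all 50-base windows of the NCF1 transcript, 80.8% occurred unchanged in the longest annotated NCF1B or NCF1C transcript, and 58.8% of 100-base windows did. The pseudogenes rose as well. NCF1B had 21, 321 and 145 counts in the control, hairpin 2 and hairpin 3 libraries (log2 fold change 3.49 ± 0.531, edgeR adjusted p = 4.56e-04), and NCF1C had 12, 182 and 78 (3.45 ± 0.623, adjusted p = 0.00192). NCF1 took 52.2% of the counts of the 3 copies in the control (exact 95% interval 39.8 to 64.4), 52.0% with hairpin 2 (48.9 to 55.1) and 54.7% with hairpin 3 (50.2 to 59.1). These intervals overlap, which is no test of a difference, and the control interval rests on 69 counts. How reads matching several places were treated is not known, so the division of reads among the copies may not reflect each copy's level. When the 3 copies were summed into 1 row, which does not depend on that division, the log2 fold change was 3.51 (edgeR adjusted p = 3.95e-05). The rise was measured for the copies as a family, and these counts cannot assign it to the functional gene alone.

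NCF4, which binds phosphatidylinositol 3-phosphate on phagosomes, had 5505 counts in the control, 10148 under hairpin 2 and 6921 under hairpin 3. Its ratio to the control was 1.90 (1.84 to 1.97) under hairpin 2 and 1.25 (1.21 to 1.30) under hairpin 3. The log2 fold change of 0.66 ± 0.188 passed with an adjusted p of 0.0394 in edgeR, the weakest call among the 5. It was lost with robust empirical Bayes, with DESeq2, without the low-count filter, with a filter at a mean CPM of 1 and against a fold change of 1.5 (adjusted p from 0.0133 to 1.0 over the edgeR and DESeq2 settings). In CPM, NCF4 averaged 140 ± 40.8 (SD, n = 2) with ARID1B silenced, above 88.7 in the control. The antisense gene NCF4-AS1 covers 1.53% of the NCF4 exon length.

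RAC2, the GTPase of blood cells that activates the assembled enzyme, was the most abundant of the 6. It had 9693 counts in the control, 16396 under hairpin 2 and 12741 under hairpin 3, with ratios of 1.75 (1.70 to 1.79) and 1.31 (1.27 to 1.34). The log2 fold change was 0.61 ± 0.164 (edgeR adjusted p = 0.0281), a call lost in the same settings as that of NCF4 except DESeq2 (adjusted p from 0.0116 to 1.0). RAC1, the widely expressed paralogue that can also serve the oxidase, had 12725, 12472 and 13020 counts and a log2 fold change of 0.02 ± 0.132 (edgeR adjusted p = 0.953). Scaled to exon length, the ratio of RAC2 to RAC1 was 0.937 in the control, 1.62 under hairpin 2 and 1.20 under hairpin 3. The size of this ratio depends on the exon lengths used.

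HVCN1, the proton channel, changed most evenly between the hairpins. It had 2200 counts in the control, 6920 under hairpin 2 and 6163 under hairpin 3, or 3.25 (3.10 to 3.41) and 2.79 (2.66 to 2.93) times the control. Its log2 fold change of 1.59 ± 0.147 had the lowest adjusted p of the 6 (5.77e-06, edgeR), a call lost only without the low-count filter (0.465) among the settings tried. In CPM, HVCN1 went from 35.4 to 107 ± 11.5 (SD, n = 2). The gene shares 17.2% of its exon length with TCTN1 on the opposite strand, which had 1516, 3207 and 3093 counts. Whether the counting used strand is not given in the sources used here, so part of the reads could be shared, and how much of the HVCN1 rise they carry was not tested.

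All 6 genes were higher under hairpin 2 than under hairpin 3, by 1.16 times for HVCN1 (1.13 to 1.21) to 2.10 times for NCF1 (1.81 to 2.44). Over all genes tested 49.8% were higher under hairpin 2, and among the 1119 genes called higher 83.3% were. The order of the hairpins in the oxidase genes was thus shared with most genes that rose, and it stands beside nearly equal ARID1B counts.

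Scaled to exon length (CPM per kilobase), RAC2 led in the control with 61.7, followed by NCF4 with 50.4, CYBA with 23.7, CYBB with 20.0, HVCN1 with 9.61 and NCF1 with 0.168. Exon length here merges every annotated exon of a gene and can exceed the length of its transcripts. The order between genes depends on that choice. The control was 1 library, so neighbours in this order have no replicate spread there. RAC2 and NCF4 stayed first and second and NCF1 last under both hairpins. The ratio of CYBB to CYBA was 0.843 in the control, 1.58 under hairpin 2 and 1.47 under hairpin 3. CYBB thus rose relative to CYBA, but which of them stood higher depends on the exon lengths used (4423 and 3357 bases). Under hairpin 3 HVCN1 (26.8) and CYBA (25.4) stood close together, with HVCN1 above, whereas under hairpin 2 CYBA (38.2) was above HVCN1 (31.2), so the order of this pair did not hold between the hairpins. NCF1 made up 0.101% of the summed level of the 6 genes in the control, 0.779% under hairpin 2 and 0.532% under hairpin 3. It thus remained the scarcest of the 6 as counted, also in CPM without length scaling. Its merged exon length was 3462 bases against 1396 for its longest coding transcript, and reads shared with the pseudogenes may be missing. These shares may therefore understate NCF1.

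**Figure D3:**
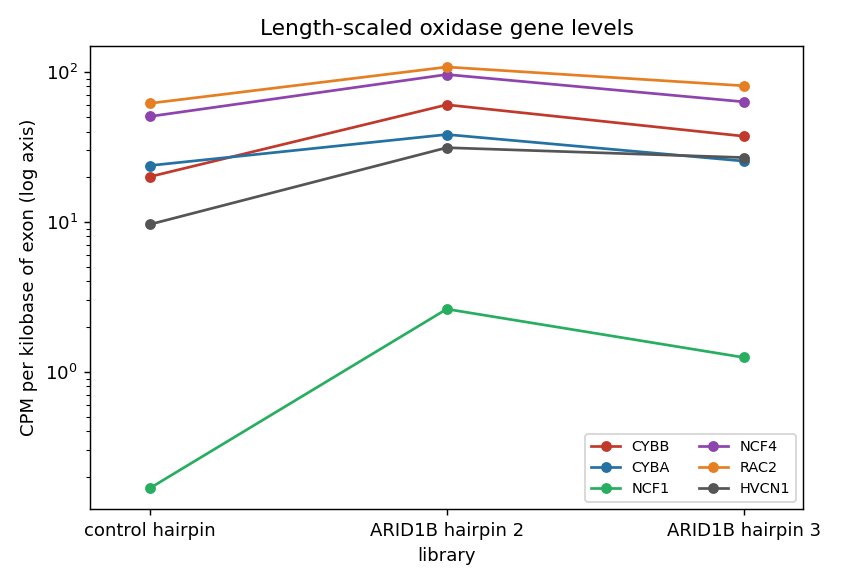
CPM per kilobase of GENCODE 29 exon length for the 6 genes in the 3 libraries, on a log axis; each point is 1 library and lines join the points of a gene. CYBB lies below CYBA in the control (20.0 and 23.7) and above it under both hairpins, and NCF1 stays lowest. The order between genes depends on these lengths, which merge all annotated exons.

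Of 8 other genes listed for the make-up, assembly or support of the oxidase, 3 rose and 0 fell, with a median log2 fold change of 0.35. None of the 3 that rose encodes a subunit of the enzyme. Over all genes tested, 5.49% were called higher and 3.21% lower, with a median of -0.0116. HMOX1, which breaks down heme, had 26, 225 and 91 counts in the control, hairpin 2 and hairpin 3 libraries (2.62 ± 0.544), and HSP90B1, a chaperone of the endoplasmic reticulum (0.58 ± 0.161), and RHOG, a GTPase upstream of RAC (0.48 ± 0.131), rose as well. The dissociation inhibitors ARHGDIB and ARHGDIA, which hold RAC in the cytosol, had 0.40 ± 0.161 and 0.09 ± 0.138 and did not pass. CYBC1, the chaperone of the CYBB and CYBA pair, had 2419, 2705 and 2130 counts (0.02 ± 0.158, edgeR adjusted p = 0.96). Of 10 genes of other NADPH oxidases, 4 were tested and 0 were called. Those with the highest mean CPM were NOXA1 (log2 fold change -0.46 ± 0.274) and NOXO1 (0.10 ± 0.35), an activator and an organiser of NOX1. NOXO1 lies almost wholly (98.8% of its exon length) across TBL3 on the opposite strand, so its counts are uncertain. The 6 not tested, NOX4 among them, never exceeded 6 counts.

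Among 21 receptors that trigger or prime the burst, 17 were tested, and 12 rose and 0 fell, with a median of 1.12. The shares over all genes tested were 5.49% higher and 3.21% lower. FPR1 and FPR2, receptors for bacterial formyl peptides, had 5, 74 and 32 counts and 16, 140 and 68 counts. FPR1 passed the low-count filter through the hairpin libraries alone. CSF2RB, the shared signalling chain for GM-CSF, IL-3 and IL-5, went from 497 counts to 4747 and 2667 (2.93 ± 0.277, edgeR adjusted p = 7.09e-06), and PTAFR, the receptor for platelet-activating factor, from 663 to 3181 and 1984 (1.99 ± 0.234). The most abundant receptors that did not pass were CSF3R (0.33 ± 0.142) and TNFRSF1A (0.27 ± 0.131). The untested 4, FCGR3A, FCGR3B, CXCR1 and TLR2, had at most 5 counts in any library.

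Of 25 kinases, exchange factors and lipases acting on the oxidase, 7 rose (PRKCB, PRKCD, PRKCZ, VAV1, VAV3, PREX1 and PLCB2) and 1 fell, with a median of 0.175. The shares over all genes tested were 5.49% higher and 3.21% lower. Of 4 protein kinase C isoforms, kinases that phosphorylate NCF1, PRKCB (0.78 ± 0.15), PRKCD (0.72 ± 0.168) and PRKCZ (0.85 ± 0.21) rose, and PRKCA had 0.17 ± 0.132 and did not pass (edgeR adjusted p = 0.513). PLCB2, a phospholipase downstream of chemoattractant receptors, rose by 0.82 ± 0.193. TIAM1, an activator of RAC, had 249, 19 and 68 counts and fell (-2.50 ± 0.387, edgeR adjusted p = 5.33e-04). SYK (0.35 ± 0.14) and PLCG2 (0.43 ± 0.146), the most abundant members that did not pass, act below Fc receptors and integrins.

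Of 20 transcription factors known at oxidase gene promoters, 5 rose and 1 fell, with a median of 0.102, beside 5.49% higher and 3.21% lower over all genes tested. GATA1, which acts at the CYBB promoter in eosinophils, had the largest change, from 57 counts to 942 and 510 (3.70 ± 0.374), and GATA2 (1.38 ± 0.142) and IRF8 (1.05 ± 0.216), a partner of PU.1, rose. CEBPA (0.74 ± 0.141) and CEBPB (0.71 ± 0.174) rose as well. SATB1, a chromatin organiser and repressor, had 8536, 3358 and 4757 counts and fell (-1.06 ± 0.155, edgeR adjusted p = 3.28e-04). SPI1, which encodes PU.1, had 6463, 9936 and 8034 counts (0.50 ± 0.153) and did not pass (edgeR adjusted p = 0.055). The abundant ELF1 and YY1 had -0.02 ± 0.132 and -0.06 ± 0.13.

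Of 11 genes of NADPH supply, 2 rose and 0 fell, with a median of 0.013. For this list and the next, all genes tested gave 5.49% higher and 3.21% lower. IDH1 (0.90 ± 0.177) and PGD (0.50 ± 0.14), which are NADPH-producing dehydrogenases, rose, whereas the transketolase TKT (0.01 ± 0.157) and the mitochondrial transhydrogenase NNT (0.24 ± 0.135) did not pass. Among 19 tested genes that handle superoxide and peroxide, 4 rose and 0 fell, with a median of 0.145. These were EPX, the eosinophil peroxidase (5.21 ± 0.382), catalase (CAT, 0.71 ± 0.135), PRDX4 (0.65 ± 0.134) and SRXN1 (0.49 ± 0.133), whose exons lie to 85% within another annotated gene's. Myeloperoxidase (MPO), which turns the peroxide of the burst into hypochlorous acid, had 682719, 836096 and 741714 counts and did not pass (0.23 ± 0.295, edgeR adjusted p = 0.733), nor did TXNRD1 (0.28 ± 0.136).

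**Figure D4:**
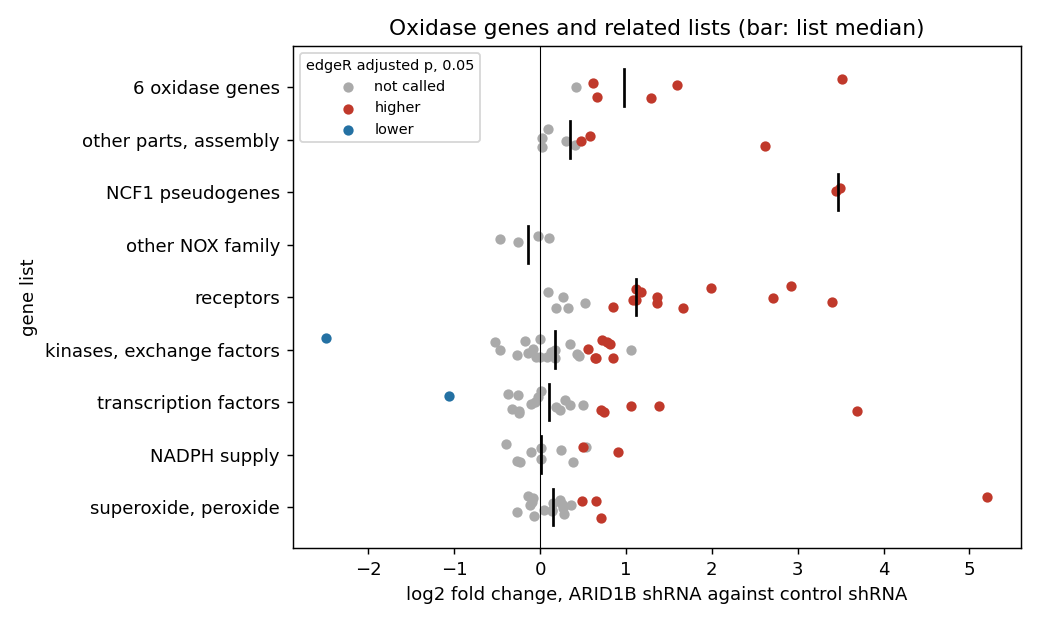
Log2 fold change of ARID1B shRNA against control shRNA (edgeR) for the 6 oxidase genes and related gene lists; each point is 1 gene, black bars are list medians, and colour gives the call at an adjusted p of 0.05. Of the 6 oxidase genes 5 are called higher, with a median of 0.972, and no tested gene of the other NADPH oxidases is called.

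Marker lists of cell types that carry the oxidase, and of others, differed in how many of their genes were called. Beside each list stand the shares over all genes tested, 5.49% higher and 3.21% lower. The summed level of 7 eosinophil markers was 77.8 CPM in the control, 1795 under hairpin 2 and 952 under hairpin 3, with 5 of 7 higher. Most of that sum was PRG2 (66.7, 1260 and 709 CPM) and EPX (10.4, 529 and 238 CPM). PRG2 has 43% of its exon length under another gene on the same strand, which had 21490, 93512 and 63923 counts. PRG3 (9, 64 and 91 counts), CLC (3, 127 and 26 counts) and SIGLEC8 (21, 130 and 144 counts) also rose. CCR3 (9, 22 and 12 counts) and IL5RA (5, 20 and 26 counts) did not pass. PRG3, CLC, CCR3 and IL5RA had under 10 counts in the control and entered the test through the hairpin libraries alone. Of 8 monocyte and macrophage markers with a row, 7 were tested, and FCN1 and CD68 rose, of which CD68 has 81.7% of its exon bases in common with another gene. The sum over the list was 32.8, 72.4 and 51.5 CPM, and the defining marker CD14 had 5, 16 and 13 counts. Of 11 mature neutrophil markers 4 were tested, and CXCR2 (127, 337 and 206 counts) and CAMP (3, 62 and 46 counts) rose. CAMP entered the test through the hairpin libraries alone. The sums over the list were 15.1, 19.5 and 11.1 CPM. Most of that sum was MMP25 (12.8, 12.4 and 6.77 CPM), which did not pass. The other 7, FCGR3B and LTF among them, had at most 6 counts in any library. Of 6 B cell markers 0 were called among 5 tested and MS4A1 had 0 counts in each library, while of 8 T and NK cell markers 3 were tested and CD3D and NKG7 rose, CD3E having at most 3 counts. The sums of the B cell list were 14.4, 25.7 and 16.5 CPM and those of the T and NK cell list 29.6, 55.8 and 42.7 CPM. Of 8 epithelial and fibroblast markers 3 were tested and 0 called, with sums of 23.4, 19.2 and 23.5 CPM. Of 8 promyelocyte markers 2 rose (PRTN3 and HGF) and 1 fell (CTSG), MPO and AZU1 did not pass, and ELANE was near 0 with 10, 4 and 1 counts. The sums were 11500, 14580 and 12580 CPM, most of it MPO (11000, 13910 and 11900 CPM). The part of any of these cells or programmes in the oxidase result was not tested, and in bulk RNA more cells of a type and more RNA per cell cannot be told apart.

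The genes nearest to NCF1 and HVCN1, the members with the largest fold changes, were found among 14977 genes whose mean CPM was 1 or more, by the distance between their pairs of hairpin-against-control log2 differences. With 3 libraries this is a description of 2 differences that share a control. For NCF1 (3.89 under hairpin 2 and 2.83 under hairpin 3) they were the potassium channel subunit KCNE1 (3.96 and 2.72), the adhesion receptor ADGRE3 (3.77 and 2.89) and NCF1B (3.86 and 2.67). For HVCN1 (1.70 and 1.48) they were the metalloprotease ADAM8 (1.69 and 1.46), the inflammasome family member NLRP12 (1.70 and 1.51) and the adhesion receptor ADGRE1 (1.67 and 1.47). Near NCF1, control counts were low, at 9 for KCNE1, 24 for ADGRE3 and 21 for NCF1B. Whether reads shared with NCF1 bring NCF1B close to it was not tested.

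The number of calls among the 6 differed between settings, while every member's fitted log2 fold change stayed above 0 in each setting named here. With robust empirical Bayes HVCN1 alone of the 6 was called (4.39% of all genes higher), and with DESeq2 NCF1, RAC2 and HVCN1 were (4.47%). With a mean CPM of at least 1 as the filter (4.15%), and when tested against a fold change of 1.5 (1.59%), the calls were CYBB, NCF1 and HVCN1. Without a low-count filter 0 of the 6 and 0.0% of all genes passed in edgeR, where 3 of the 6 and 3218 genes had an unadjusted p under 0.05, against 6 and 4226 in the filtered fit. The same count of 5 was reached with upper quartile factors (4.86%), with library size alone (5.92%), with the legacy quasi-likelihood fit (6.29%) and with the NCF1 copies summed (5.48%).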

How the data were processed

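The authors deposited 1 table of whole-number counts per Ensembl gene ID, not normalized. STAR, featureCounts, Cufflinks and hg19 are named per the submitters' processing notes. Versions, annotation release, strand use and the treatment of reads matching several places were not found (not given in the sources used here). GENCODE 29, made on another build, named 52338 IDs and gave exon lengths and overlaps, so no coordinates from it are printed. Start regions and their coordinates came from a RefSeq table (GRCh38.p14).

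Counts were filtered (filterByExpr, minimum count 10), TMM-scaled and tested in R 4.3.3 with edgeR 4.0.16 (glmQLFit with legacy = FALSE, glmQLFTest), two-sided. SE is the log2 fold change over the root of F. The common coefficient of variation was 0.11 and the prior had 14.8 degrees of freedom. Ratios between libraries have exact conditional binomial intervals (95%). Log2 differences per hairpin used a prior count of 2. DESeq2 1.42.0 was an alternative. The test was tested on simulated data.

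Members and lists were chosen with earlier results of these data known. Named genes were the members, ARID1B, the NCF1 pseudogenes, in each pathway list up to 4 called genes with the largest change and up to 2 uncalled genes with the highest mean CPM, and the 3 nearest patterns of the 2 most changed members. RAC1, CYBC1, SPI1, CEBPA, CEBPB, PRKCA, PRKCD, VAV1, VAV3, PREX1, TCTN1, genes listed as not tested and the individual marker genes were named after their values were seen. MRC1 had no matching row. Some genes of these lists are not reported here and were left out of the list counts.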

Additional observations from a re-analysis of the deposited data

How the results depend on the processing

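Of the 6 oxidase genes, 3 were called with DESeq2, 3 with genes kept at a mean CPM from 1 up, 1 with robust empirical Bayes, 3 against a fold change of 1.5 and 0 without a low-count filter. Over all genes 1774 were called, against 1042 with DESeq2, 960 under that CPM filter, 457 against a fold change of 1.5 and 0 without the filter. Without the filter the log2 fold changes were 1.29 for CYBB, 3.52 for NCF1, 0.657 for NCF4, 0.611 for RAC2 and 1.59 for HVCN1 (edgeR adjusted p = 0.47, 0.47, 0.516, 0.479 and 0.465). Robust empirical Bayes in edgeR lost CYBB (1.29, adjusted p = 0.218), NCF1 (3.52, 0.139), NCF4 (0.658, 0.329) and RAC2 (0.612, 0.0667). DESeq2 lost CYBB (1.30, adjusted p = 0.258) and NCF4 (0.669, 0.733). A mean CPM of at least 1 lost NCF4 (0.651, edgeR adjusted p = 0.141) and RAC2 (0.605, 0.0943), and the test against a fold change of 1.5 lost both (0.658 and 0.612, adjusted p = 1.0 each). The cause was not tested. Over the alternatives the adjusted p ranged from 7.07e-11 to 0.47 for NCF1, from 1.53e-16 to 0.465 for HVCN1 and from 0.127 to 1.0 for CYBA in edgeR and DESeq2.

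Leaving out 1 hairpin leaves 1 library against 1, a value with no test and no count of calls. Log2 differences then ranged from 0.897 to 1.59 for CYBB, 0.0992 to 0.687 for CYBA, 2.83 to 3.89 for NCF1, 0.324 to 0.928 for NCF4, 0.389 to 0.804 for RAC2 and 1.48 to 1.70 for HVCN1, the lower value always being without hairpin 2. The lone control library cannot be left out. No paired analysis was possible because the lone control library stood against both hairpin libraries. A count of 0 allows up to 3 counts, or 0.0477 to 0.05 CPM.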
